A study of Mus musculus with 9 samples.

Results

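The circadian clock genes described here were Arntl, Clock, Per1, Per2, Per3, Cry1, Cry2, Nr1d1, Nr1d2 and Dbp, 10 genes of the 19053 that had a probe on the arrays. They were chosen by symbol, with every probe of each gene, by a rule that did not use their measured values, though earlier results of these data were known. The arrays held 19 probes for them, of which 12 passed the detection filter and 4 were detected on no array. The filter kept a probe that was detected on all 3 arrays of at least 1 group, and 9 of the 10 genes passed it through at least 1 probe, against 10024 genes in the whole series. Cry1 did not pass.

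The study compared 3 kinds of mouse heart cells by Illumina bead array, with 3 samples of each, all from B6.129X1 mice that carry the reporter allele Gt(ROSA)26Sortm1(EYFP)Cos on a C57BL/6J background, in which Cre recombination turns on a yellow fluorescent protein. YFP-positive cardiomyocytes were sorted by flow cytometry from left ventricular apex tissue, taken 28 days after a single subcutaneous injection of isoproterenol (200 mg per kg), a beta-adrenergic agonist that damages the heart muscle, in mice given a lentivirus with Cre driven by c-kit, so that the cells were held to descend from c-kit-positive cells. Normal adult cardiomyocytes were the second group, and c-kit-positive, CD45-negative endogenous cardiac stem cells (eCSC), harvested at passage 4, were the last. The sample titles of the YFP-positive group call the cells in vitro derivatives, whereas the design describes cells sorted from hearts, and the isoproterenol injection stands in the labels of all 9 samples. Neither the time of day at which cells were collected nor whether the samples came from separate animals or cultures is given in the sources used here, so the p-values cover only the spread among the arrays of a group, and that spread may be technical.

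The mammalian clock is a transcription loop that runs in nearly every cell, including cardiomyocytes. The proteins of Arntl (also called Bmal1) and Clock form a dimer that binds E-boxes and switches on the Per, Cry, Nr1d and Dbp genes; the PER and CRY proteins then hold that dimer back, and the REV-ERB receptors made from Nr1d1 and Nr1d2 repress Arntl. Messenger RNA of Dbp, Nr1d1 and Per2 therefore peaks at other hours than that of Arntl, and in bulk RNA the level also depends on how far the cells of a sample run in step.

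Between 15326 and 19048 of 45281 probes were detected on an array (33.8% to 42.1%), and arrays of a group correlated at r = 0.975 to 0.987 (YFP-positive), 0.982 to 0.987 (adult) and 0.981 to 0.992 (eCSC). The cardiomyocyte markers followed the labels: their summed level, on the linear scale, was 66400 to 78100 in YFP-positive cells, 79300 to 86900 in adult cardiomyocytes and 116 to 120 in eCSC, where all 6 were undetected. Markers of other cells were not the same in the groups. Summed endothelial markers stood at 8590 to 9030 in YFP-positive cells, 2840 to 3590 in adult cardiomyocytes and 202 to 224 in eCSC. The fibroblast sum was 6660 to 9250 in YFP-positive cells, 1690 to 2660 in adult cardiomyocytes and 421 to 509 in eCSC. By gene, though, 2 of 6 fibroblast markers tested were higher and 3 lower in adult cardiomyocytes than in eCSC (median log2 difference -0.685). Among them Dcn differed by 6.19 and Col1a1 by -3.085. The proliferation sum was 870 to 1260 in YFP-positive cells, 100 to 116 in adult cardiomyocytes and 4930 to 5950 in eCSC.

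Sequences near the gene starts are given first, because the loop acts through short motifs there. The windows come from RefSeq on GRCm38.p6, run 250 bases before to 50 after an annotated start, and cover 9 of the 10 genes with 13 windows, since some genes have several starts. Each was searched on both strands for the E-box CACGTG, which the ARNTL and CLOCK proteins bind, for the D-box TTATGTAA or TTACGTAA, which DBP binds, and for the REV-ERB and ROR element TAGGTCA or TGGGTCA. Arntl, the gene that the REV-ERB receptors repress, Per1 and Per3 are shown with their matches in capitals, and Dbp is shown because it had the largest differences of the 10 genes.
Arntl (chr7:113207261-113207560, plus strand): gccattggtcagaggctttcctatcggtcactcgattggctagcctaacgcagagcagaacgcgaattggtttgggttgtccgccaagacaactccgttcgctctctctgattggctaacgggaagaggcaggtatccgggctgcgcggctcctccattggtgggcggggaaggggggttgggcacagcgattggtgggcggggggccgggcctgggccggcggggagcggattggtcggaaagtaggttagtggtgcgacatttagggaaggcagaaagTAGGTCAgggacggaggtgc
Per1 (chr11:69098699-69098998, plus strand): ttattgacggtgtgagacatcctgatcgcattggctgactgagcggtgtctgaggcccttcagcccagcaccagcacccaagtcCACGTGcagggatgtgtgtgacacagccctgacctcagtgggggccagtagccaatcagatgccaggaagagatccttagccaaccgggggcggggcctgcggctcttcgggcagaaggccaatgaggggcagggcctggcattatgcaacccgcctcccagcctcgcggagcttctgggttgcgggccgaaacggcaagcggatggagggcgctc
Per3 (chr4:151044616-151044915, minus strand): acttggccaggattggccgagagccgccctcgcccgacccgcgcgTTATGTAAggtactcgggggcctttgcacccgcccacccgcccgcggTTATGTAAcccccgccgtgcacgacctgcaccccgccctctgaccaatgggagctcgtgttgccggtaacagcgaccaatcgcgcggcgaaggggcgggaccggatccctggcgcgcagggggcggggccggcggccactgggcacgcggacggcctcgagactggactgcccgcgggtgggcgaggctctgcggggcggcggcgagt
Dbp (chr7:45704997-45705296, plus strand): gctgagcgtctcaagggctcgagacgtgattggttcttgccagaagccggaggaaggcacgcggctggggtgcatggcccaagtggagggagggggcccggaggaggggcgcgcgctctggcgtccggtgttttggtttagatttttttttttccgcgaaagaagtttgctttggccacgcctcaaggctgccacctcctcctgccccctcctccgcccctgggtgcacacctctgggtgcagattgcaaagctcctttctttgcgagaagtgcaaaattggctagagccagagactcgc
Of the 2 Arntl windows, 1 held TAGGTCA, starting 30 bases after the start and shown above, and the other held no match, while a match of this element was present in 6.45% of all 32851 windows. Counting bases before the start as negative, the E-box of Per1 began at -166 in 1 of its 2 windows, and Cry1 held another at -60 (chr10:85185005-85185304, minus strand), against 7.15% of all windows. Per3 held TTATGTAA at -205 and at -158, and a D-box was present in 1.06% of all windows. No match was found in the windows of Clock, Cry2, Nr1d1, Nr1d2 and Dbp, which says only that these letters are not in these windows. A match is a description of sequence and not a measured binding site.

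Levels below are log2 of the background-corrected, quantile-normalized signal, and a gene is represented by its brightest detected probe. A difference was called when the adjusted p was under 0.05 in limma's moderated test with Benjamini-Hochberg adjustment over all 10024 genes. In YFP-positive cardiomyocytes against eCSC, 3 clock genes were higher (Nr1d1, Nr1d2 and Dbp), 1 was lower (Arntl) and 5 did not pass. Over all genes 34.4% were called higher and 38.7% lower in that comparison. In adult cardiomyocytes against eCSC the same 3 genes were higher, Arntl and Per2 were lower and 4 did not pass, with 35.8% of all genes called higher and 39.4% lower. Both comparisons share the eCSC arrays. In YFP-positive against adult cardiomyocytes 1 gene, Per2, was higher, none was lower and 8 did not pass, with 22.8% of all genes called higher and 27.9% lower. Sizes depended on the background step: the Nr1d1 difference between YFP-positive cells and eCSC was 0.55 without background correction, 0.67 in the deposited log2 values and 0.90 with an offset of 50, against 1.5 as given below, and stayed called. Under the same 3 settings Dbp differed by 2.65, 2.57 and 3.11 in that comparison, and Per2 by 0.84, 0.89 and 1.19 between YFP-positive and adult cardiomyocytes. The shares of clock genes called lay near or below these backgrounds, so the results lie in which genes differed and by how much. The median difference of the 9 genes was 0.49, 0.06 and -0.05 in these comparisons, and that of all genes tested was -0.10, -0.05 and -0.08.

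**Figure D1:**
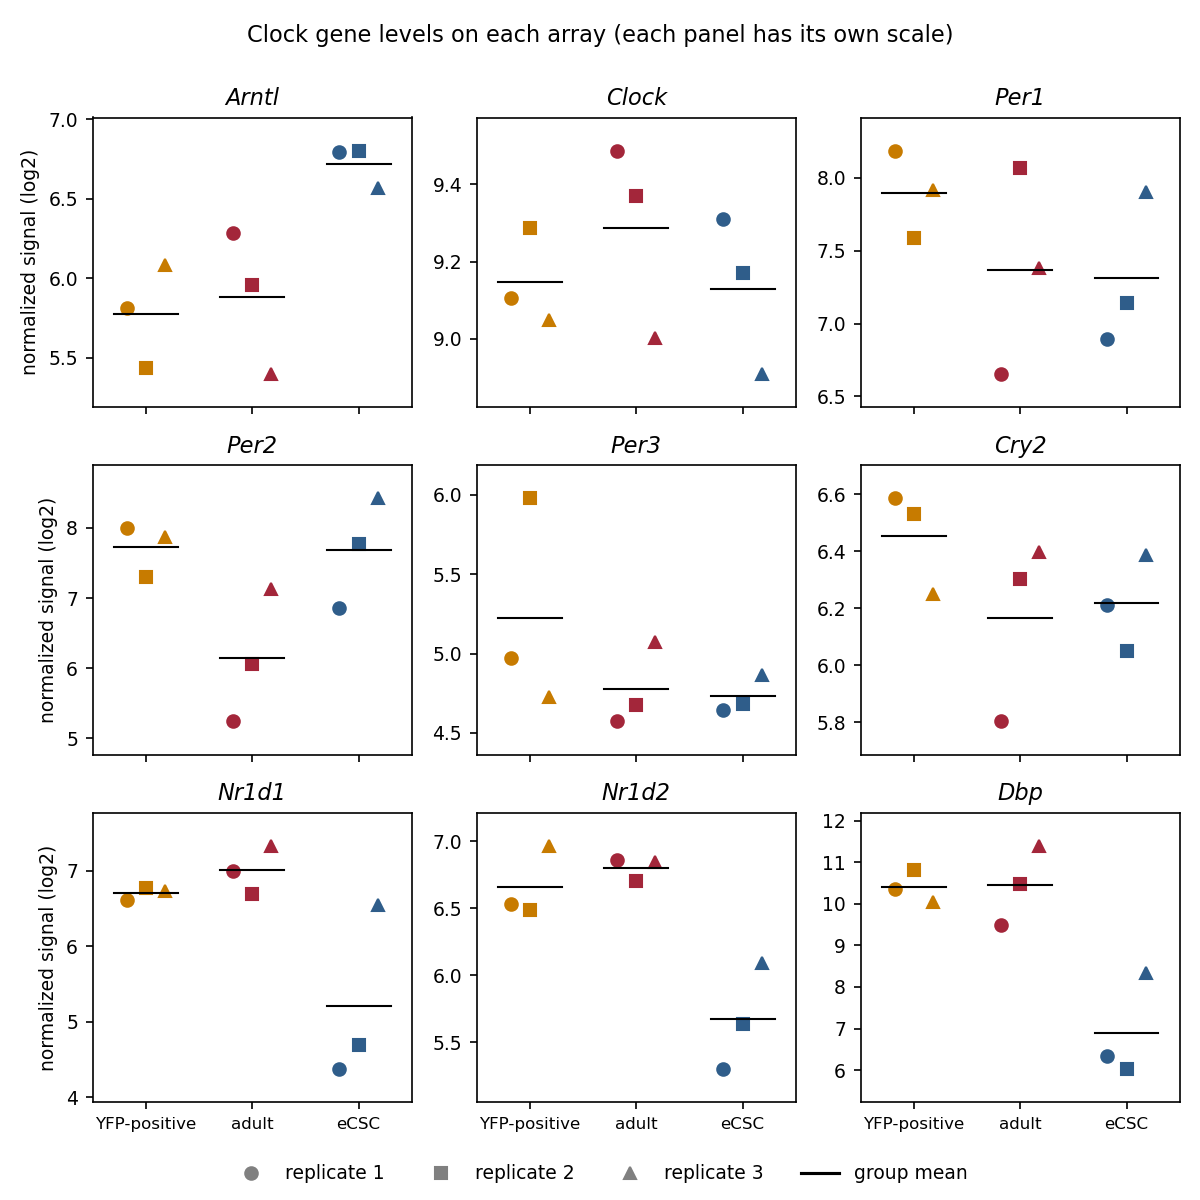
Log2 normalized signal (vertical axis) of the 9 clock genes that passed the detection filter on each of the 9 arrays; points are arrays, their shape is the replicate number, the line is the mean of 3 arrays and each panel has its own scale. In these normalized values Dbp, Nr1d1 and Nr1d2 were higher and Arntl was lower on every cardiomyocyte array than on any eCSC array. Per2 was higher on every YFP-positive array than on any adult array. In deposited signal eCSC replicate 3 was not below every cardiomyocyte array in Dbp, Nr1d1 or Nr1d2. With arrays scaled to equal medians the differences of Nr1d1 and Nr1d2 from eCSC were no longer called.

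Dbp, a PAR bZIP activator that is a direct output of the clock, lies on chromosome 7 (45705100 to 45710203) and showed the largest differences. Its deposited signal was 1356.5, 1232.6 and 1188.2 in the YFP-positive samples, 733.9, 1234.7 and 1957.4 in the adult samples, and 179.9, 157.5 and 742.6 in the eCSC samples. Normalized, these were 10.37, 10.81 and 10.04 in YFP-positive cells, 9.50, 10.47 and 11.39 in adult cardiomyocytes, and 6.34, 6.03 and 8.34 in eCSC. After normalization all 6 cardiomyocyte arrays lay above all 3 eCSC arrays, and eCSC replicate 3 lay well above the other 2. In deposited signal adult replicate 1 (733.9) lay just below eCSC replicate 3 (742.6). The mean was 10.40 ± 0.39 in YFP-positive cells, 10.45 ± 0.94 in adult cardiomyocytes and 6.90 ± 1.25 in eCSC (SD, n = 3 each). Dbp was 11.3-fold higher in YFP-positive cells than in eCSC (log2 difference 3.50 ± 0.51 SE, adjusted p = 2.38e-05). Adult cardiomyocytes exceeded eCSC 11.7-fold (3.55 ± 0.51 SE, adjusted p = 1.7e-05). The difference between YFP-positive and adult cardiomyocytes was -0.05 ± 0.51 (SE, adjusted p = 0.948), with overlapping arrays. In bulk RNA such as this, fewer cells of a type and less RNA per cell cannot be told apart. Without eCSC replicate 3 the Dbp difference was 4.20 for YFP-positive cells and 4.25 for adult cardiomyocytes. It was 3.21 and 3.26 without eCSC replicate 1, and 3.06 and 3.11 without eCSC replicate 2.

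Nr1d1, which encodes REV-ERB alpha, lies on chromosome 11 (98767932 to 98775377). It read 6.61, 6.78 and 6.73 in YFP-positive cells, 7.004, 6.70 and 7.33 in adult cardiomyocytes, and 4.38, 4.69 and 6.55 in eCSC. The gene was detected on all 6 cardiomyocyte arrays but on 1 of 3 eCSC arrays, replicate 3. After normalization that array came close to the cardiomyocytes without reaching them. Its deposited signal, 267.3, was above the 152.3 to 209.8 of the cardiomyocyte arrays. Nr1d1 was 2.83-fold higher in YFP-positive cells than in eCSC (1.5 ± 0.40 SE, adjusted p = 0.00361) and 3.49-fold higher in adult cardiomyocytes than in eCSC (1.80 ± 0.40 SE, adjusted p = 0.000833). Without eCSC replicate 3 the gene was not detected in eCSC, and it was then at least 3.82-fold higher in YFP-positive cells and at least 4.71-fold higher in adult cardiomyocytes, measured against the dimmest detected signal of the other 2 eCSC arrays. Leaving out another eCSC array made the log2 differences smaller. They were 1.07 and 1.37 without replicate 1 (adjusted p = 0.0272 and 0.00675), and 1.23 and 1.525 without replicate 2 (adjusted p = 0.0246 and 0.00715).

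Nr1d2, which encodes REV-ERB beta, lies on chromosome 14 (18204056 to 18239106) and was detected on all 9 arrays. Its values were 6.53, 6.49 and 6.96 in YFP-positive cells, 6.86, 6.70 and 6.84 in adult cardiomyocytes, and 5.30, 5.63 and 6.09 in eCSC. After normalization, again no eCSC array reached a cardiomyocyte array, and eCSC replicate 3 was the highest of its group. In deposited signal that replicate (213.8) lay within the range of the cardiomyocyte arrays (139.8 to 230.8). Nr1d2 was 1.98-fold higher in YFP-positive cells than in eCSC (0.99 ± 0.21 SE, adjusted p = 0.000624). The adult level was 2.19-fold that of eCSC (1.13 ± 0.21 SE, adjusted p = 0.000172). Between YFP-positive and adult cardiomyocytes neither receptor gene passed the test, with differences of -0.30 ± 0.40 for Nr1d1 and -0.14 ± 0.21 for Nr1d2 (SE, adjusted p = 0.556 and 0.602).

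Both receptor genes kept their direction but lost their calls against eCSC when arrays were scaled to equal medians in place of quantile normalization. Nr1d1 then differed by 1.25 in YFP-positive cells (adjusted p = 0.0515) and by 1.13 in adult cardiomyocytes (adjusted p = 0.0747), and Nr1d2 by 0.72 (adjusted p = 0.0763) and 0.42 (adjusted p = 0.285). That scaling placed the median of all genes at -0.49 and -0.68. Relative to it, Nr1d1 stood 1.75 and 1.81 higher and Nr1d2 1.21 and 1.10 higher. The SE was also larger under that scaling, 0.54 against 0.40 for Nr1d1 and 0.345 against 0.21 for Nr1d2. The calls were also lost with no normalization. Nr1d1 then differed by 1.2 in YFP-positive cells (adjusted p = 0.0654) and by 1.001 in adult cardiomyocytes (adjusted p = 0.116), and Nr1d2 by 0.66 (adjusted p = 0.125) and 0.29 (adjusted p = 0.499).

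Arntl, the activating partner that REV-ERB receptors repress, lies on chromosome 7 (113178471 to 113314126). It ran the other way. The levels were 5.82, 5.44 and 6.08 in YFP-positive cells, 6.29, 5.96 and 5.40 in adult cardiomyocytes, and 6.80, 6.80 and 6.57 in eCSC. Every eCSC array lay above every cardiomyocyte array, and the eCSC arrays were the closest together. Arntl was lower in YFP-positive cells than in eCSC by a log2 difference of -0.94 ± 0.23 (SE, adjusted p = 0.00177) and lower in adult cardiomyocytes than in eCSC by -0.84 ± 0.23 (SE, adjusted p = 0.00372). YFP-positive and adult cardiomyocytes differed by -0.10 ± 0.23 (SE, adjusted p = 0.737).

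Clock, whose protein pairs with that of Arntl, lies on chromosome 5 (76209868 to 76305603), and its brightest probe differed little between groups. That probe gave 9.11, 9.29 and 9.05 in YFP-positive cells, 9.49, 9.37 and 9.002 in adult cardiomyocytes, and 9.31, 9.17 and 8.91 in eCSC, and the 3 groups overlapped. The differences were 0.02 ± 0.18 in YFP-positive cells against eCSC (SE, adjusted p = 0.934), 0.16 ± 0.18 in adult cardiomyocytes against eCSC (adjusted p = 0.447) and -0.14 ± 0.18 in YFP-positive against adult cardiomyocytes (adjusted p = 0.553). Scaling arrays to equal medians turned both differences from eCSC negative, to -0.67 (adjusted p = 0.0339) and -0.69 (adjusted p = 0.0282), but that scaling placed the median of all genes at -0.49 and -0.68, and Clock stood -0.18 and -0.02 from it. A dimmer Clock probe did not behave like the brightest. It gave 5.32, 4.68 and 4.87 in YFP-positive cells (detected on 2 arrays), 4.36, 4.73 and 4.51 in adult cardiomyocytes (detected on none), and 5.93, 5.90 and 5.73 in eCSC. Fitted on its own, its difference was -0.90 ± 0.19 in YFP-positive cells against eCSC (SE, adjusted p = 0.000702 over all probes). In adult cardiomyocytes, where it was not above background, it was at least 2.01-fold lower than in eCSC (adjusted p = 1.69e-05). The remaining probe of Clock was not detected on any array, and the 2 detected Clock probes thus gave different results against eCSC.

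**Figure D2:**
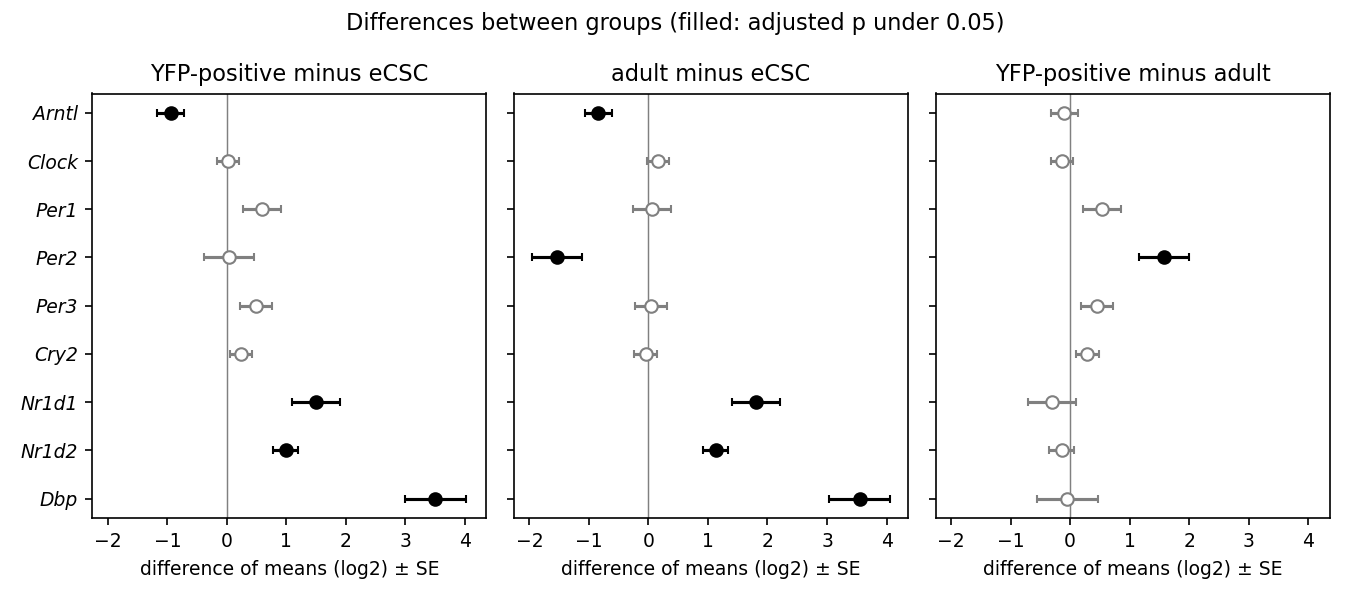
Difference of group means (log2, horizontal axis) with its standard error for the 9 clock genes in the 3 comparisons; filled points passed an adjusted p of 0.05. Dbp, Nr1d1 and Nr1d2 lie to the right and Arntl to the left of 0 in both comparisons with eCSC, and Per2 alone is filled in YFP-positive against adult cardiomyocytes; with arrays scaled to equal medians the Nr1d1 and Nr1d2 points against eCSC were no longer called and those of Clock turned negative along with the median of all genes.

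The Period genes encode repressors that bind CRY proteins, and Per2 was the only clock gene that passed the test between YFP-positive and adult cardiomyocytes. Per2 lies on chromosome 1 (91415977 to 91459351). Its brightest probe read 8.0, 7.30 and 7.88 in YFP-positive cells, 5.24, 6.06 and 7.13 in adult cardiomyocytes, and 6.86, 7.77 and 8.42 in eCSC. The adult arrays lay below all YFP-positive arrays, by a small margin for adult replicate 3, which also exceeded the lowest eCSC array. Per2 was 3.00-fold higher in YFP-positive than in adult cardiomyocytes (1.58 ± 0.42 SE, adjusted p = 0.00615), and lower in adult cardiomyocytes than in eCSC by -1.54 ± 0.42 (SE, adjusted p = 0.00385) although 1 array of each overlapped. YFP-positive cells and eCSC differed by 0.04 ± 0.42 (SE, adjusted p = 0.931).

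A dimmer Per2 probe gave the same order with a smaller spread. Its levels were 7.61, 7.13 and 7.36 in YFP-positive cells, 5.54, 5.32 and 6.53 in adult cardiomyocytes, and 7.13, 7.21 and 7.60 in eCSC, so that no adult array overlapped with either other group. Fitted on its own, this probe was higher by 1.57 in YFP-positive than in adult cardiomyocytes (adjusted p = 0.000287 over all probes) and differed by -1.51 in adult cardiomyocytes against eCSC (adjusted p = 0.000114). The difference of the brightest probe between YFP-positive and adult cardiomyocytes was 1.13 without adult replicate 1 and 2.1 without adult replicate 3, and it passed the test in both cases. It missed the threshold (adjusted p = 0.0514) when dim probes were not filtered out.

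Markers of cells other than cardiomyocytes differed in the same comparison as Per2. In YFP-positive against adult cardiomyocytes 6 of 7 endothelial markers were higher and 1 lower, all 6 fibroblast markers tested were higher, 5 of 6 leukocyte markers were higher, all 4 proliferation markers were higher, and none of 4 smooth muscle markers passed. Of the 6 cardiomyocyte markers 2 were lower. The leukocyte sum was 5720, 1860 and 3130 in the YFP-positive samples, 577 to 767 in the adult samples and 125 to 133 in the eCSC samples. The part of these markers in the Per2 difference was not tested.

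Per1, a Period gene that is also induced quickly by hormones and by cAMP signals, lies on chromosome 11 (69095108 to 69109965). Its brightest probe read 8.19, 7.59 and 7.92 in YFP-positive cells, 6.656, 8.07 and 7.38 in adult cardiomyocytes, and 6.89, 7.14 and 7.90 in eCSC. The groups overlapped, with adult replicate 2 and eCSC replicate 3 as high as the YFP-positive ones. The differences were 0.59 ± 0.32 in YFP-positive cells against eCSC (SE, adjusted p = 0.111), 0.06 ± 0.32 in adult cardiomyocytes against eCSC (adjusted p = 0.879) and 0.53 ± 0.32 in YFP-positive against adult cardiomyocytes (adjusted p = 0.185). Leaving out 1 array brought a call in YFP-positive cells against eCSC without eCSC replicate 3 (0.87, adjusted p = 0.0292) and against adult cardiomyocytes without adult replicate 2 (0.88, adjusted p = 0.0323). With all arrays kept, Per1 was also called against eCSC when the fit weighted the arrays (0.875, adjusted p = 0.0111). A dimmer Per1 probe, detected on all 9 arrays, was fitted on its own. It differed by 0.16, -0.02 and 0.18 in the same 3 comparisons (adjusted p = 0.708, 0.966 and 0.724 over all probes).

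Per3, whose product is held to matter least to the running of the loop, lies on chromosome 4 (150997018 to 151044707) and was dim. It read 4.97, 5.98 and 4.73 in YFP-positive cells, 4.57, 4.68 and 5.07 in adult cardiomyocytes, and 4.64, 4.68 and 4.87 in eCSC. It was detected on all 3 YFP-positive arrays and on 1 array of each other group, and YFP-positive replicate 2 stood apart from the rest. The difference from eCSC was 0.49 ± 0.27 in YFP-positive cells (SE, adjusted p = 0.106) and 0.05 ± 0.27 in adult cardiomyocytes (adjusted p = 0.889), and YFP-positive cells differed from adult cardiomyocytes by 0.45 ± 0.27 (adjusted p = 0.173). The difference between YFP-positive cells and eCSC was 0.12 without YFP-positive replicate 2 (adjusted p = 0.595) and 0.73 without YFP-positive replicate 3 (adjusted p = 0.0268), and that between YFP-positive and adult cardiomyocytes was 0.08 without YFP-positive replicate 2 (adjusted p = 0.77).

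The cryptochromes, which with the PER proteins block the activating dimer, gave no called difference. The single Cry1 probe (the gene lies on chromosome 10, 85131700 to 85185054) was not detected on any of the 9 arrays and was not tested. Cry2, on chromosome 2 (92403646 to 92434085), read 6.58, 6.53 and 6.25 in YFP-positive cells, 5.80, 6.30 and 6.40 in adult cardiomyocytes, and 6.21, 6.05 and 6.39 in eCSC, with overlap between all groups. Its differences were 0.24 ± 0.19 in YFP-positive cells against eCSC (SE, adjusted p = 0.275), -0.05 ± 0.19 in adult cardiomyocytes against eCSC (adjusted p = 0.828) and 0.29 ± 0.19 in YFP-positive against adult cardiomyocytes (adjusted p = 0.23). With arrays scaled to equal medians Cry2 was called lower in adult cardiomyocytes than in eCSC (-0.83, adjusted p = 0.0124), with the median of all genes at -0.68.

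Replicate arrays of a group differed more in several clock genes than in most other genes. The range of Dbp among the eCSC arrays was 2.31, and 0.0399% of the 10024 genes had a wider one. For Nr1d1 in eCSC the range was 2.17 (0.0798% of genes wider) and for Per2 in eCSC 1.56 (0.369%). Adult cardiomyocytes showed it too, with ranges of 1.89 for Dbp (0.11% of genes wider), 1.89 for Per2 (0.12%) and 1.41 for Per1 (0.609%). YFP-positive arrays lay closer together in Dbp, Per2 and Per1, with ranges of 0.77 for Dbp, 0.70 for Per2 and 0.60 for Per1, and 12.4%, 16.3% and 24.9% of genes wider. Per3 was wide among YFP-positive arrays (1.25, 2.22% of genes wider). Arntl had a range of 0.89 in adult cardiomyocytes (6.53% of genes wider) and of 0.23 in eCSC (71.8%). Other ranges were narrow, such as those of Nr1d1 (87.5% of genes wider) and Clock (76.6%) in YFP-positive cells and of Nr1d2 in adult cardiomyocytes (84.6%).

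In the quantile-normalized values, Arntl and Clock stood opposite most other clock genes on eCSC replicate 3 and on adult replicates 1 and 3. eCSC replicate 3 was the highest of its group for 7 of the 9 genes (Per1, Per2, Per3, Cry2, Nr1d1, Nr1d2 and Dbp), against 36.7% of all genes, and the lowest for the other 2, Arntl and Clock, against 38.9% of all genes. Adult replicate 3 was the highest for Per2, Per3, Cry2, Nr1d1 and Dbp (37.2% of all genes had it highest). It was also the lowest for Arntl and Clock (33.2% of all genes had it lowest). Adult replicate 1 was the lowest for Per1, Per2, Per3, Cry2 and Dbp (35.3% of all genes) and the highest for Arntl, Clock and Nr1d2 (34.9% of all genes). The counts that hold Arntl and Clock, 2, 2 and 3 of 9 genes, thus lay near or below the shares of all genes. With arrays scaled to equal medians the eCSC array of replicate 3 was the highest for all 9 genes, Arntl and Clock included, as it was for 69.6% of all genes, and adult replicate 3 was the highest for 3 (12.9% of all genes). Scaling could also use the median of only the probes that all 9 arrays detected. Then eCSC replicate 3 was the highest for 6 genes (27.4% of all genes) and adult replicate 3 for 6 (50.4%). Adult replicate 1 was then the lowest for 5 (51.9%). Among YFP-positive arrays no such order appeared: the second was the highest for 4 genes (41.5% of all genes) and the lowest for 4 (35.4%). eCSC replicate 3 also had the highest median signal before normalization, 117.9 against 93.6 to 103 on the other 8 arrays. Collection time and culture state are not given for single samples, and their part in this order was not tested.

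**Figure D3:**
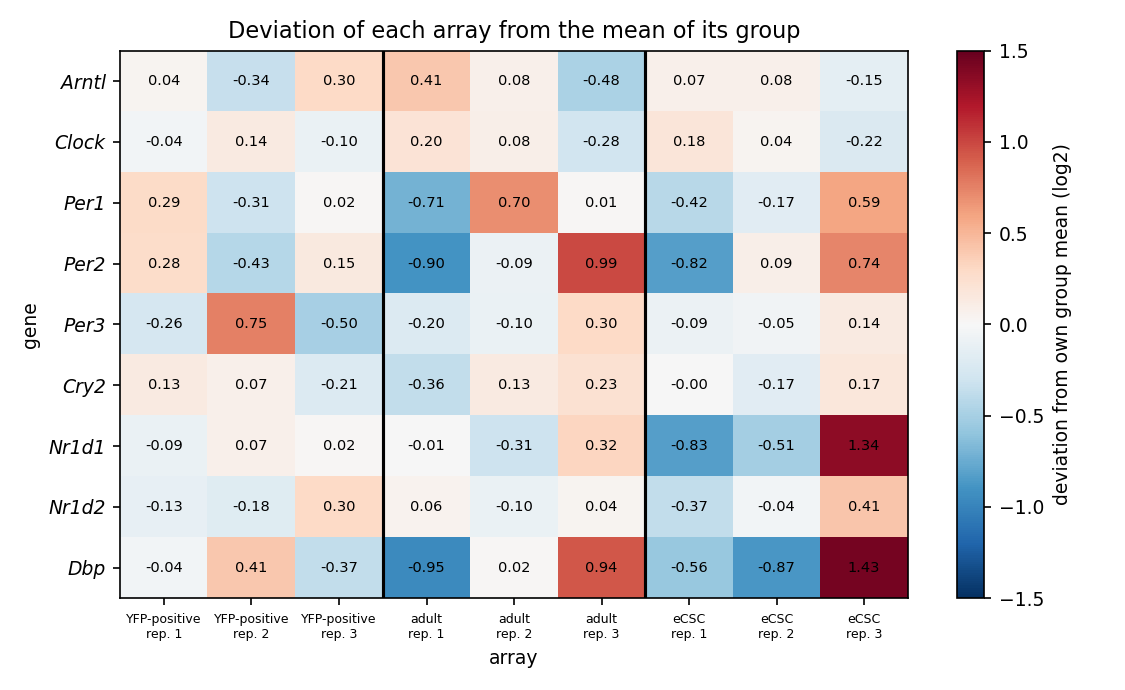
Deviation of each array (columns) from the mean of its own group in log2 units for each clock gene (rows); red is above and blue below the group mean, and black lines part the groups. On the eCSC and adult arrays of replicate 3 Dbp, Nr1d1 and Per2 are above their group mean while Arntl and Clock are below it; with arrays scaled to equal medians eCSC replicate 3 was the highest of its group for all 9 genes.

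Tef, the PAR bZIP relative of Dbp, had its highest eCSC and adult levels on replicate 3, as Dbp had. It read 7.44, 7.71 and 8.18 in YFP-positive cells, 7.30, 8.35 and 8.64 in adult cardiomyocytes, and 6.48, 6.50 and 7.84 in eCSC. Replicate 3 was also the highest YFP-positive array for Tef, where it was the lowest for Dbp. Tef was higher in adult cardiomyocytes than in eCSC (1.15 ± 0.37 SE, adjusted p = 0.011), whereas its difference of 0.83 in YFP-positive cells against eCSC did not pass (adjusted p = 0.0555). It was the 1 gene tested of 3 listed PAR bZIP and D-box factors.

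The other listed genes of the core and stabilizing loops gave 6 tested of 10. In YFP-positive cells against eCSC 2 were higher and 4 lower (median -0.70), in adult cardiomyocytes against eCSC 1 was higher and 4 lower (median -1.22), and in YFP-positive against adult cardiomyocytes 3 were higher and none lower (median 0.63). Rora, a nuclear receptor that activates Arntl from the element that REV-ERB receptors use, read 7.52, 7.29 and 7.59 in YFP-positive cells, 7.48, 7.16 and 7.34 in adult cardiomyocytes and 4.58, 4.44 and 4.78 in eCSC, where 1 of 3 arrays detected it. It thus stood higher in the cardiomyocytes (2.86 and 2.72, adjusted p = 1.42e-09 and 1.82e-09), together with Nr1d1 and Nr1d2.

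Ciart, a repressor of the ARNTL and CLOCK dimer that is itself a clock target, was lower in both kinds of cardiomyocyte than in eCSC. It read 5.76, 5.83 and 5.31 in YFP-positive cells, 4.83, 5.23 and 6.51 in adult cardiomyocytes (2 of 3 detected) and 8.52, 8.59 and 8.57 in eCSC. The eCSC arrays were nearly equal and the highest, so that Ciart did not share the high level of Dbp on eCSC replicate 3. Its difference from eCSC was -2.92 in YFP-positive cells (adjusted p = 1.1e-06) and -3.04 in adult cardiomyocytes (adjusted p = 5.48e-07).

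Bhlhe40, which encodes the repressor DEC1, shared with Per2 a higher level in YFP-positive than in adult cardiomyocytes (1.44 ± 0.19 SE, adjusted p = 2.98e-05), as did Timeless (1.13, adjusted p = 0.000114) and its partner Tipin (1.22, adjusted p = 7.21e-05). Unlike Per2, Bhlhe40 was higher in YFP-positive cells than in eCSC (1.70, adjusted p = 1.32e-06) and did not pass in adult cardiomyocytes against eCSC (0.26, adjusted p = 0.217). Timeless differed from eCSC by -0.76 in YFP-positive cells and by -1.89 in adult cardiomyocytes (adjusted p = 0.00107 and 1.2e-07). Tipin differed from eCSC by -1.75 and -2.97 (adjusted p = 4.59e-07 and 9.68e-10). In mammals both are known chiefly from DNA replication. The proliferation marker sums given above moved with them, and their part was not tested.

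Of 10 listed kinases and ubiquitin enzymes that set the life of clock proteins 6 were tested. In YFP-positive cells against eCSC 1 was higher and 4 were lower (median -0.63), in adult cardiomyocytes against eCSC 1 was higher and 3 lower (median -0.35), and in YFP-positive against adult cardiomyocytes 2 were higher and 3 lower (median -0.30). Usp2, a deubiquitinase and itself a clock output, read 9.89, 10.47 and 10.10 in YFP-positive cells, 10.45, 10.91 and 11.07 in adult cardiomyocytes and 4.51, 4.999 and 5.09 in eCSC, where 2 of 3 arrays detected it. The differences from eCSC were 5.29 ± 0.22 and 5.95 ± 0.22 (SE, adjusted p = 2.66e-11 and 5.4e-12), both larger than those of Dbp. Csnk1d, the casein kinase that phosphorylates PER proteins, differed from eCSC by -0.72 in YFP-positive cells (adjusted p = 0.00166) and by -2.31 in adult cardiomyocytes (adjusted p = 1.23e-08), and was higher in YFP-positive than in adult cardiomyocytes by 1.59 (adjusted p = 4.88e-06). Csnk1e, a related kinase, differed from eCSC by -0.92 in YFP-positive cells (adjusted p = 0.000463) and by -1.49 in adult cardiomyocytes (adjusted p = 3.87e-06).

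**Figure D4:**
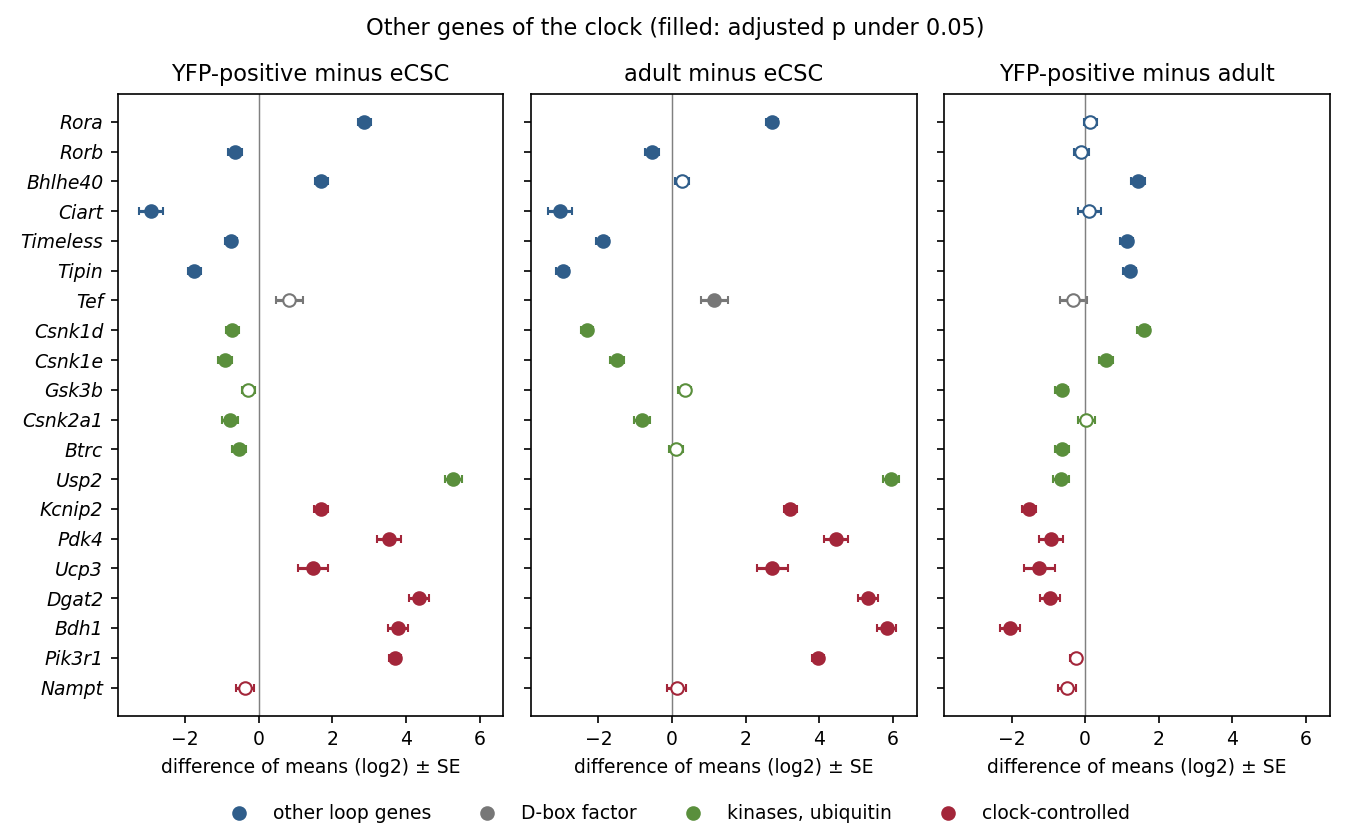
Difference of group means (log2, horizontal axis) with its standard error for the tested genes of 4 further clock lists in the 3 comparisons; colours mark the lists and filled points passed an adjusted p of 0.05. Usp2 reaches 5.29 and 5.95 against eCSC, and 6 of 7 clock-controlled heart genes are filled points to the right against eCSC, while 5 of the 7 are filled points to the left in YFP-positive against adult cardiomyocytes.

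Genes known as clock-controlled in the heart gave 7 tested of 9. Against eCSC 6 were higher and none lower in both YFP-positive and adult cardiomyocytes (medians 3.53 and 3.96), and in YFP-positive against adult cardiomyocytes none was higher and 5 were lower (median -0.96). Pik3r1, which encodes the regulatory subunit of PI3 kinase, was higher against eCSC by 3.70 in YFP-positive cells and by 3.96 in adult cardiomyocytes (adjusted p = 4.18e-11 and 1.46e-11). Dgat2, the last enzyme of triglyceride synthesis, was higher against eCSC by 4.36 in YFP-positive cells and by 5.32 in adult cardiomyocytes (adjusted p = 2.24e-09 and 1.7e-10). Bdh1, a ketone body enzyme not detected in eCSC, was at least 10-fold higher in YFP-positive cells and at least 41.4-fold higher in adult cardiomyocytes (adjusted p = 1.16e-08 and 6.43e-11). In YFP-positive against adult cardiomyocytes Bdh1 differed by -2.05 (adjusted p = 3.19e-05) and Kcnip2, a potassium channel subunit, by -1.52 (adjusted p = 1.47e-05). These are also genes of cardiac metabolism, and the cardiomyocyte marker sums given above were likewise higher in the cardiomyocytes than in eCSC. In YFP-positive against adult cardiomyocytes 2 of 6 cardiomyocyte markers were lower (median -0.37). The part of the clock in the levels of the clock-controlled genes was not tested.

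Immediate early genes and glucocorticoid-induced genes were listed because the signals that induce them also induce Per1. All 7 immediate early genes tested were higher in YFP-positive than in adult cardiomyocytes (median 4.23) and than in eCSC (median 2.38), with a summed linear level of 15400 to 19100 in YFP-positive cells, 1660 to 2610 in adult cardiomyocytes and 1600 to 3080 in eCSC. Of 5 glucocorticoid-induced genes tested 3 were higher and none lower in YFP-positive against adult cardiomyocytes (median 1.02), and 4 were higher and 1 lower against eCSC (median 1.28). In adult cardiomyocytes against eCSC 1 immediate early gene was higher and 2 were lower (median 0.12), and 2 glucocorticoid-induced genes were higher and 3 lower (median -0.74). Per1 did not pass in any of the 3 comparisons.

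Leaving out unnamed clone transcripts, the genes whose levels over the 9 arrays were most like those of Arntl were Fancl (r = 0.976), Mcu (r = 0.976), Colca2 (r = 0.969), Yy2 (r = 0.963) and H4c4 (r = 0.958). Those most like Dbp were Rnf40 (r = 0.974), Parp14 (r = 0.972), Camk2n1 (r = 0.967), Zranb1 (r = 0.967) and Aatk (r = 0.966). These correlations describe 9 arrays that fall into 3 groups and rest largely on the difference between groups.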

How the data were processed

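The bead arrays measured labelled cRNA made from Trizol-extracted RNA, per the labels' protocols. The deposited probe table holds raw signal intensity, 1 column per array; per the file headers a detection p-value stands beside each signal, yet bright probes have values near 1, so 1 minus the deposited value was taken. Deposited log2 values, set against each array, served as an alternative; lumi (version 2.10.0) and R (version 2.15.3) are listed in the submitters' processing notes. The 18 signal columns of 2 gene-level tables were not used, since how probes were merged is not given in the sources used here.

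Signals were background-corrected by normexp with offset 16, quantile-normalized and put on log2 (neqc, limma 3.58.1, R 4.3.3). A probe was kept when, in 1 or more groups, its detection p stayed below 0.05 on each of the 3 arrays (18180 of 45281 probes). Of all probes 34885 had 1 gene symbol and 18 had several; 34807 symbols were updated by Entrez ID and 11 by accession, through RefSeq GRCm38.p6. The brightest kept probe stood for each of 10024 genes. The number of arrays limits the precision. All 9 arrays entered 1 limma fit with 3 contrasts and Benjamini-Hochberg adjustment at 0.05. The code was tested on simulated data. A gene not detected in a group was given a lower bound against the dimmest detected signal of each array.

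The members, lists and motifs were chosen with earlier results of these data known. All 10 members are named, and from the lists some of the 4 genes with the smallest adjusted p in a comparison. The 22 alternatives changed background, scaling, filter, probe choice and fit, or left out an array.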

Additional observations from a re-analysis of the deposited data

How the results depend on the processing

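The counts of clock genes called (4, 5 and 1 in YFP-positive against eCSC, adult against eCSC and YFP-positive against adult cardiomyocytes) were set against 22 alternatives. Of 588 values of a gene under an alternative, 563 kept their direction and their side of the threshold, 9 lost their call, 10 gained one and 6 reversed. Counted among the 563 were 40 whose sign changed while the difference was called under neither setting. The 9 lost calls were those of Nr1d1 and Nr1d2 against eCSC under median scaling and with no normalization, and that of Per2 with no filter on dim probes. The 6 reversals were all of Clock. In YFP-positive cells against eCSC it became -0.67 after median scaling, -0.73 without normalization and -0.44 for the mean of its detected probes (adjusted p = 0.0339, 0.0386 and 0.0191). In adult cardiomyocytes against eCSC it became -0.69, -0.82 and -0.58 (adjusted p = 0.0282, 0.0202 and 0.00354). The cause was not tested, beyond that the mean takes in the dimmer probe. The YFP-positive against eCSC count was 7 when the scaling used the median of only those probes that all 9 arrays detected, which added Per1, Per3 and Cry2; Per3 was then also called in adult cardiomyocytes against eCSC (0.93, adjusted p = 0.00861). The YFP-positive against adult count was 0 with no filter on dim probes, where Per2 had an adjusted p of 0.0514 in limma's test. More genes were then tested (19053 against 10024), and the SE of Per2 was 0.51 against 0.42 as reported. The part of each in the lost call was not tested. Leaving out 1 array gave 4 to 5, 5 to 5 and 1 to 2 calls. With the replicate block the counts were 4, 5 and 1, so it moved no count. In YFP-positive against adult cardiomyocytes it lowered the SE of Per2 from 0.42 to 0.31 and that of Dbp from 0.51 to 0.42. The SE of Arntl and Cry2 rose slightly. Over all genes tested, deviations from the group mean correlated at r = -0.0649 to 0.122 between same-numbered arrays of different groups. The numbers were not taken to pair the samples.

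The sizes of called differences shrank without background correction, with offset 50 and in the deposited log2 values: in YFP-positive cells against eCSC to between 0.42 and 0.67 for Nr1d2 and to between -0.65 and -0.42 for Arntl, and in adult cardiomyocytes against eCSC to between 0.72 and 1.13 for Nr1d1, 0.49 and 0.77 for Nr1d2, and -1.17 and -0.84 for Per2. Scaling set the balance over all genes. Of all calls, 47%, 47.6% and 45% were higher as reported, 34.8%, 29.3% and 73.2% with median scaling, 32.8%, 26% and 82.2% with no normalization, and 60.6%, 61.9% and 43.8% with the median of the probes that all 9 arrays detected. The calls over all genes were 7326, 7543 and 5079. They were 4609, 4938 and 3367 of 6536 genes with only probes detected on all 9 arrays, and 12955, 13514 and 8633 when each of 18180 probes was fitted. YFP-positive against adult gave 3082 calls with median scaling and 2685 with no normalization. The number of clock genes highest on adult replicate 3 was 3, not 5, with median scaling or no normalization, a check chosen after seeing the data. Dim signal limits Cry1 and Per3.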
